A study of Mus musculus with 12 samples.

Results

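Imprinted genes, 40 in all, were followed in 12 single blastomeres of mouse embryos. The genes came from a list of known imprinted loci, and probes were matched by the gene name on the array, by accession or by an older name. Of the 40 genes, 39 matched at least 1 non-control probe, with 75 probes among the 41174 on the array, and Meg3 was matched through its older name Gtl2. Rtl1 matched none and was not analysed here. By the parental allele they are known to express, 17 of the measured genes are maternally expressed and 20 paternally expressed. Gnas uses both alleles, depending on the promoter. Ppp1r9b was given no class, since the imprinted gene of that family is its paralog Ppp1r9a.

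The cells came from 6 embryos of the outbred CF-1 strain, conceived by natural mating and flushed from oviducts about 36 h post coitus, and each embryo was separated into its 2 blastomeres. Experiment 2 held pairs D, G and H and experiment 1 held pairs D, I and L, so each experiment had 3 embryos and 6 cells. All embryos shared strain and stage, and no group was treated. What cell 2 and cell 1 of an embryo stand for is not stated. An array measures the total transcript of a gene and cannot tell its maternal from its paternal copy. In amplified RNA of single cells, the number of transcripts and the yield of amplification cannot be told apart.

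Genomic imprinting is the expression of a gene from the copy inherited from 1 parent. It is set by DNA methylation placed on control regions in the egg or the sperm and kept through the wave of demethylation after fertilisation. Maternally and paternally expressed genes often lie together in a domain under 1 control region. Many paternally expressed genes promote growth of the fetus and placenta, and many maternally expressed genes restrain it. At the 2-cell stage much of the RNA was stored by the oocyte, so a transcript found there need not have been made from the embryo's own genome. Several members are imprinted in some tissues only, such as Dcn, Cd81, Ascl2 and Gatm in placenta or yolk sac and Ube3a in neurons.

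The arrays differed widely in detection. Spots well above background made up 31.2 to 78.8% of an array in experiment 2 and 22.1 to 41.7% in experiment 1. Experiment 2 was scanned in Cy3. In experiment 1 the signal lay in Cy5, although the labels name Cy3 for every sample. Experiment, dye and scan protocol coincide and cannot be told apart, and no slide held cells of both experiments. Both cells of an embryo were on the same slide, and of 4 slides 2 carried more than 1 embryo. The labelled cell type was checked on 14 oocyte transcripts with a probe, which a 2-cell blastomere still holds: 11 were well above background on all 12 arrays. Their summed signal was 58.3 to 84.5 in experiment 2 and 54.6 to 98.0 in experiment 1, in units of the array's 75th percentile. Markers of other cells differed more. The summed signal of 15 stromal markers was 0.19 to 1.26 in experiment 2 and 12.5 to 81.9 in experiment 1. That of 12 oviduct epithelium markers was 0.16 to 1.73 in experiment 2 and 9.33 to 67.5 in experiment 1. That of 12 macrophage and blood markers was 0.14 to 0.83 in experiment 2 and 6.00 to 260.3 in experiment 1. Cumulus and granulosa markers stayed low, at 0.09 to 1.47 in experiment 2 and 0.06 to 0.94 in experiment 1.

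The first question was which imprinted genes had a measurable transcript. Of the 39 genes, 26 had a probe well above background on at least 6 arrays, against 55.0% of the 21300 named genes on the array and 40.6% of all non-control probes. On all 12 arrays 7 did so, against 22.4% of named genes and 14.2% of probes, and 5 were seen on no array, against 9.32% of named genes and 15.6% of probes. The 7 were Cd81, Commd1, Copg2 and Kcnq1 among maternally expressed genes and Mcts2, Mest and Zrsr1 among paternally expressed genes. By class, 13 of 17 maternally expressed genes reached 6 arrays, and 11 of 20 paternally expressed genes did so. This is a description of these classes, which were not tested against each other.

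The genes without signal included regulators of later tissues. Ascl2, a transcription factor of the trophoblast, and Gatm, an enzyme of creatine synthesis, were maternally expressed genes on no array. Magel2 and Mkrn3 of the Snrpn domain, and Nnat, a membrane protein of the developing brain, were paternally expressed genes on no array. H19, the maternally expressed noncoding RNA beside Igf2, was well above background on 2 arrays of experiment 2 and on 0 of experiment 1. Ddc was seen on 1 array, Rasgrf1 and Dlk1, a Notch-like ligand, on 3 each, and Nap1l5 on 4. Ndn and Zim1 reached 5 arrays each, and so did Plagl1, a zinc finger factor, which was seen on 1 array of experiment 2 and 4 of experiment 1. For these genes the data say only that no level above background was measured on the other arrays.

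The count of detected genes differed between single cells. Of 17 maternally expressed genes, 10 to 15 were detected in a cell of experiment 2 and 7 to 14 in a cell of experiment 1. Of 20 paternally expressed genes, 8 to 17 were detected in a cell of experiment 2 and 6 to 11 in a cell of experiment 1. The highest counts, 15 maternally and 17 paternally expressed genes, came from cell 1 of pair D in experiment 2, where 87.0% of all named genes were detected. The lowest, 7 and 6, came from cell 1 of pair D in experiment 1, where 33.4% were. The order did not always match: cell 2 of pair I in experiment 1 had 14 maternally expressed genes with 33.7% of spots well above background, and cell 2 of pair L had 12 with 41.7%. The part that array quality has in these counts was not tested.

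**Figure D1:**
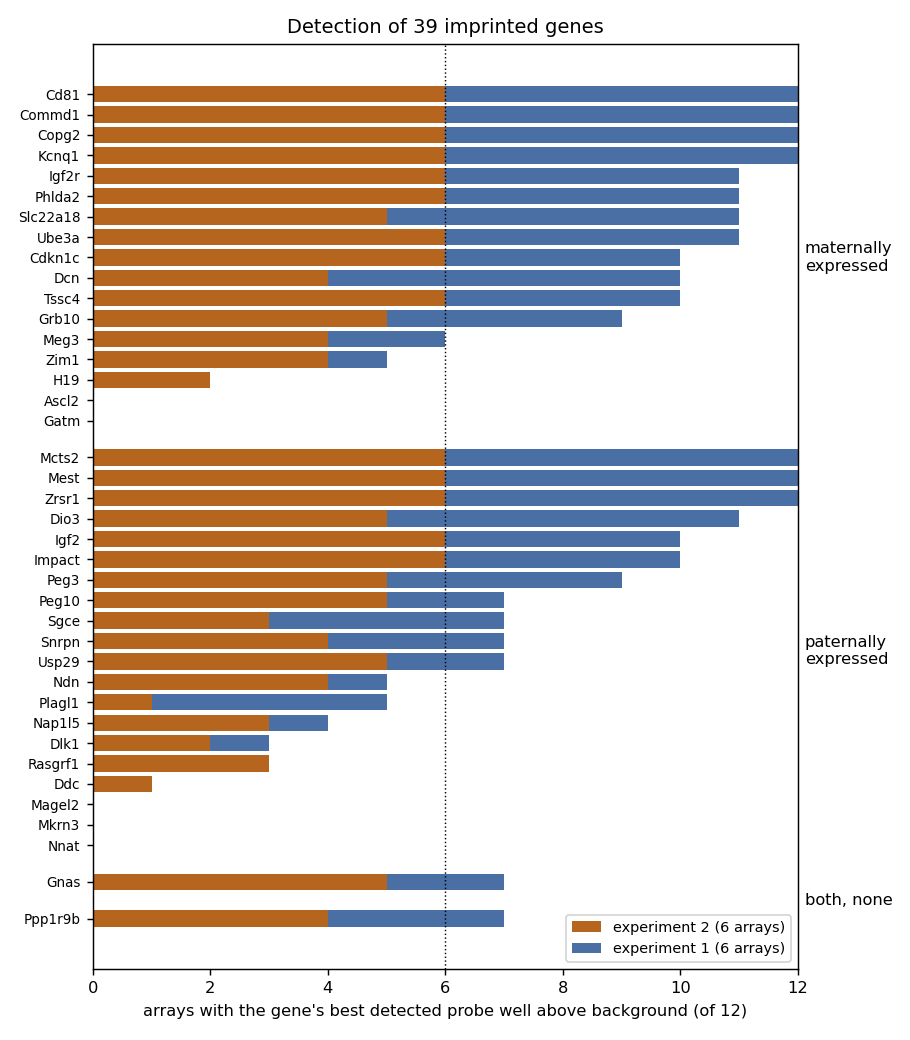
Number of arrays, of 12, on which the best detected probe of each of 39 imprinted genes was well above background, with arrays of experiment 2 and experiment 1 stacked. Genes are grouped by the allele they are known to express; 7 reach 12 arrays, 26 reach at least 6 (dotted line) and 5 have no bar.

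The second comparison was between the experiments. A log2 difference is given as experiment 2 minus experiment 1, with its standard error from limma. Of the 24 member genes whose representative probe was tested, 5 passed at an adjusted p under 0.05, where 8.11% of all 16712 tested probes passed. Mest, Zrsr1 and Igf2, all paternally expressed, were higher in experiment 2, where 3.96% of all probes were. Cd81 and Dcn, both maternally expressed, were lower, where 4.15% of all probes were. A tested gene had to be well above background on 6 arrays, and the 6 of 1 experiment were enough for that.

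Mest encodes an enzyme of the alpha/beta hydrolase family and is the classic paternally expressed gene of its domain (chr6:30733506-30748466 in GRCm38.p6). Its log2 scaled signal ran from -0.20 through a median of 0.38 to 0.95 in experiment 2, against -2.07, -1.40 and -0.44 in experiment 1. Every cell of experiment 2 lay above every cell of experiment 1. The log2 difference was 1.58 ± 0.41 (SE, n = 6 cells of 3 embryos each; limma adjusted p = 0.0337). Measured against the median of all tested probes, 0.19, the log2 difference was 1.39. The means were 0.31 ± 0.42 in experiment 2 and -1.27 ± 0.68 in experiment 1 (SD).

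Zrsr1 is a retrotransposed copy of the splicing factor gene Zrsr2 and lies wholly inside Commd1 (chr11:22972005-22976496). Its log2 signal ran from -2.34 through a median of -0.83 to -0.38 in experiment 2, against -3.14, -2.83 and -1.71 in experiment 1. The groups overlapped through 1 cell, cell 2 of pair H, which had the -2.34. The log2 difference was 1.61 ± 0.45 (limma adjusted p = 0.0490). The probe's match to Zrsr2 was not checked, so signal of the parent gene cannot be told apart from that of Zrsr1.

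Igf2, the fetal growth factor of the chromosome 7 cluster (chr7:142650768-142666816), was close to the floor. Its log2 signal ran from -3.41 through a median of -3.12 to -2.31 in experiment 2. In experiment 1 it was at the floor of -4.12 in 5 of 6 cells and at -3.47 in cell 1 of pair D. The groups did not overlap. The log2 difference was 1.02 ± 0.25 (limma adjusted p = 0.0253). With 5 cells raised to the floor it depends on where the floor lies: it was 1.55 with a lower common floor. After normexp background correction, which sets no floor, it was 0.03. The median of all tested probes was then -0.82, against 0.19 in the main fit. The probe is printed 10 times on each array. In experiment 2 all 10 spots were well above background in every cell, and in experiment 1 all 10 were in 4 cells and 0 in 2 cells. Of the 5 cells at the floor, 3 had all 10 spots well above background, so the floor hides a measured signal there. Spots of 1 array of experiment 2 agreed to an SD of 0.05 to 0.17 log2 units. A second Igf2 probe was well above background on 3 arrays of experiment 2 and 0 of experiment 1, and was not tested. That probe was at the floor in 3 cells of experiment 2 and all 6 of experiment 1, so the call rests on 1 probe.

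The calls of these 3 paternally expressed genes depended on single cells and settings, while the sizes of Mest and Zrsr1 moved less. Over the alternatives the log2 difference ran from 1.36 to 1.78 in Mest, from 0.95 to 1.88 in Zrsr1 and from 0.03 to 1.74 in Igf2. Igf2 passed in 13 of 23 alternatives, Mest in 10 of 24 and Zrsr1 in 4 of 24, and the sign was positive in each. Leaving out 1 cell ended the call of Mest in 7 of 12 cases, which were both cells of pairs G, I and L and cell 2 of pair D of experiment 1, with adjusted p of 0.0523 to 0.0804 in limma. It ended that of Igf2 in 5 cases, which were cell 2 of pair G, both cells of pair L, cell 1 of pair I and cell 2 of pair D of experiment 1 (adjusted p from 0.0508 to 0.0858 in limma). It ended that of Zrsr1 in 10 cases, all but cell 2 of pair H and cell 2 of pair D of experiment 1 (adjusted p from 0.0571 to 0.157 in limma).

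The sequence upstream of the start of these 3 genes and of Cd81, described after them, is shown because promoters of imprinted genes are often rich in CpG, the dinucleotide that imprints methylate. The 250 bases before the annotated start (RefSeq, GRCm38.p6, strand of the gene) are given 5′ to 3′ with CpG in capitals. They lie at chr6:30737800-30738049 on the plus strand for Mest, chr11:22971755-22972004 on the plus strand for Zrsr1, chr7:142658805-142659054 on the minus strand for Igf2 and chr7:143052500-143052749 on the plus strand for Cd81. Mest and Igf2 have other annotated starts. Of several starts the one with the most CpG was taken, for members and for all genes alike, so the stretches shown are the richest of their gene: the 300 bases around the start held 24 CpG for Igf2, against 14, 7 and 2 at its other starts.
Mest: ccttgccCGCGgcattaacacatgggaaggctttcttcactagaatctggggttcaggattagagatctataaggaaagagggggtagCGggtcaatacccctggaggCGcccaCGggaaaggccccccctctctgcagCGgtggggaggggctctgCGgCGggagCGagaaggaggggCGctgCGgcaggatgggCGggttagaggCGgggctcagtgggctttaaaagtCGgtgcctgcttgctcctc
Zrsr1: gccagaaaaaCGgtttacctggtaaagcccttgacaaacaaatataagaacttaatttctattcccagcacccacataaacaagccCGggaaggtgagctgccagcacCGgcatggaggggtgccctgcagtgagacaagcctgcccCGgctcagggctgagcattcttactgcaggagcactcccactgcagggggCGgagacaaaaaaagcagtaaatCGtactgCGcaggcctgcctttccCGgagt
Igf2: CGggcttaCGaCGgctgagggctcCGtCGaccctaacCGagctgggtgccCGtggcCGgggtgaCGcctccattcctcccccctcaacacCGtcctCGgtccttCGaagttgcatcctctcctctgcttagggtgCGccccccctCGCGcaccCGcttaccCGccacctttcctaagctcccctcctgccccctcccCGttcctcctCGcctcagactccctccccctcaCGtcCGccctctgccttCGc
Cd81: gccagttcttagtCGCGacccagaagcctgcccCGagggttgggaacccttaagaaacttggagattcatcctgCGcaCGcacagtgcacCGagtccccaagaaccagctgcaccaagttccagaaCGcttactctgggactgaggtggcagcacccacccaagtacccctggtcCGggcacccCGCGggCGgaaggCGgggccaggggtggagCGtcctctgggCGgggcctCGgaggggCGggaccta

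The printed stretches hold 14 CpG in Mest, 8 in Zrsr1, 22 in Igf2 and 16 in Cd81. Over the 300 bases around the start (250 before and 50 after), the median was 21 CpG in the 32 member genes with an entry and 8 in 27025 genes, each at its richest start. Over all annotated starts it was 17 in 47 member windows and 7 in 32851 windows. At the richest start of each gene, it was 23 in 13 maternally expressed and 17 in 17 paternally expressed genes. At these starts the 20 members detected on at least 6 arrays had a median of 23.5, and the 12 detected on fewer had 17. The letters TGCCGC, the core of the site that the imprint protector ZFP57 binds when methylated, were searched on both strands. They were found in 11 of 32 member genes, or 34.4%, and in 12.2% of all genes at the richest starts, and in 27.7% and 11.6% of all member windows and all windows. The Mest window held 2 matches. These counts describe the letters only.

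**Figure D2:**
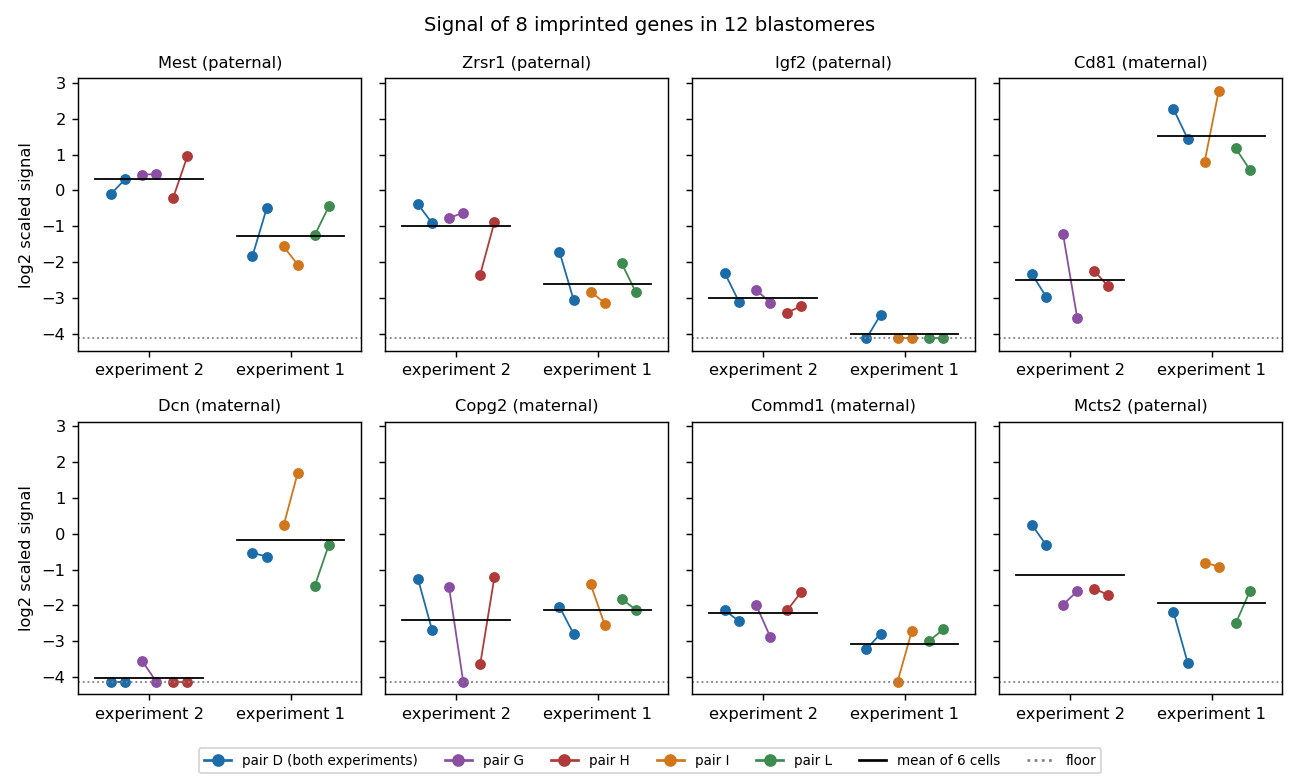
Log2 scaled signal of 8 imprinted genes in each cell, with lines joining the 2 cells of an embryo (cell 2 left of cell 1), black bars for the mean of 6 cells and a dotted line at the floor of -4.12. Mest, Igf2, Cd81 and Dcn do not overlap between the experiments, and Copg2, Commd1 and Mcts2 do. Levels of different genes come from different probes and are not to be compared.

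Among maternally expressed genes Cd81, a tetraspanin of the cell surface (chr7:143052750-143067930), was lower in experiment 2. Its log2 signal ran from -3.55 through a median of -2.50 to -1.21 in experiment 2, against 0.58, 1.31 and 2.78 in experiment 1. The groups did not overlap. The log2 difference was -4.00 ± 0.61, a 16.0-fold lower signal (limma adjusted p = 0.0024), and -4.19 relative to the median of all tested probes. It passed in all 24 alternatives run, with log2 differences from -4.32 to -3.71.

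Dcn encodes decorin, a proteoglycan of the extracellular matrix that fibroblasts and other stromal cells make (chr10:97479500-97518163). In experiment 2 it was at the floor in 5 of 6 cells and at -3.54 in cell 2 of pair G. Its tested probe was well above background on 4 of 6 arrays there. In experiment 1 its log2 signal ran from -1.45 through a median of -0.42 to 1.70. The groups did not overlap. The log2 difference was -3.86 ± 0.49 (limma adjusted p = 0.000928). It passed in all 23 alternatives run, and the log2 difference was -5.45 with a lower common floor. A second Dcn probe was well above background on 1 array of experiment 2 and 0 of experiment 1, and was not tested. That probe was at the floor in all 6 cells of each experiment, so the call of Dcn rests on 1 probe.

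Many markers of other cells, though not all, moved in the same direction as Cd81 and Dcn. The median log2 difference was -4.37 in stromal, -4.60 in oviduct epithelium and -1.29 in macrophage and blood markers, but 0.47 in cumulus and granulosa markers. Within the first 3 lists some went the other way without passing, such as Postn (0.11), Epcam (0.62) and C1qb (0.31). Of 11 stromal markers tested, 8 were lower in experiment 2 and 0 higher, where 4.15% and 3.96% of all tested probes were. Lgals1 had a log2 difference of -6.87 and Vim of -4.74 (limma adjusted p = 0.0001 and 0.0002). Col1a1 was at the floor in all 6 cells of experiment 2, so its log2 difference of -5.16 is set by the floor and the drop was at least that large (limma adjusted p = 0.0002). Sparc and Col6a1 were well above background on no array of experiment 2. Of 11 oviduct epithelium markers tested, 6 were lower. Ovgp1, the oviductal glycoprotein, was also at the floor in all 6 cells of experiment 2, and its drop was at least as large as the log2 difference of -6.06. Of 6 macrophage and blood markers, 2 were lower, and Adgre1, C1qc and Csf1r were well above background on no array of experiment 2. In contrast, Ptprc was so on 3 arrays of experiment 2 and 0 of experiment 1. Within experiment 1, cell 1 of pair I had the highest stromal sum, 81.9, and the highest log2 signals of Dcn (1.70) and Cd81 (2.78). Cell 2 of pair L had the lowest stromal sum, 12.5, and the lowest Dcn (-1.45). Its Cd81 was 1.17, and the lowest Cd81, 0.58, was that of its twin, with a stromal sum of 18.7. The part of other cells' RNA in the signals of Cd81 and Dcn was not tested.

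**Figure D3:**
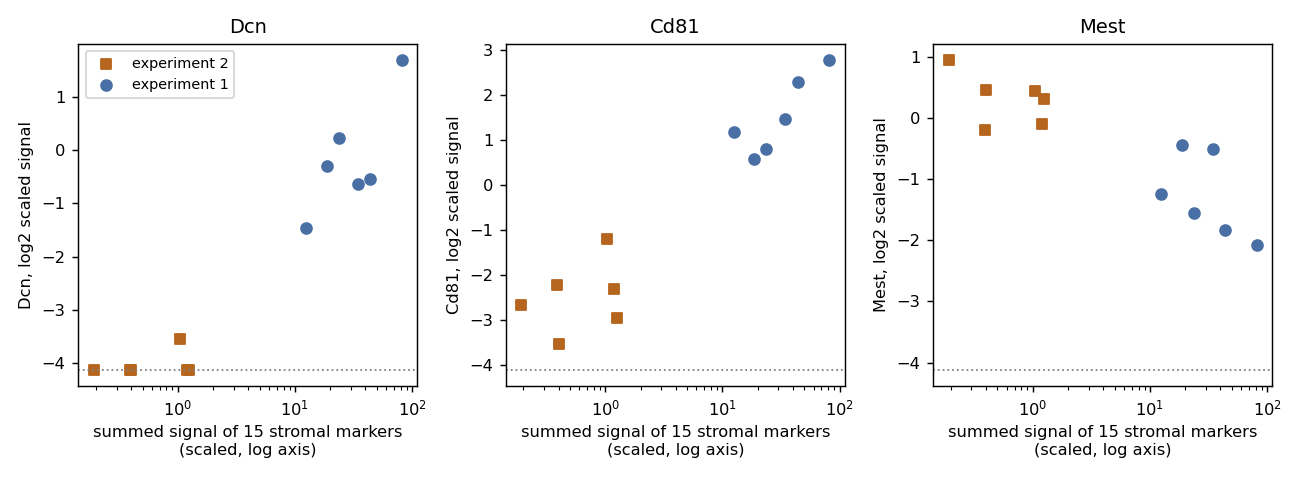
Log2 scaled signal of Dcn, Cd81 and Mest in each cell against the summed scaled signal of 15 stromal markers on a log axis, with experiment 2 as squares and experiment 1 as circles. Stromal sums lie at 0.19 to 1.26 in experiment 2 and 12.5 to 81.9 in experiment 1; Dcn and Cd81 are lower in experiment 2 and Mest is higher.

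The other maternally expressed genes did not pass. Igf2r, the receptor that clears IGF2, had a log2 difference of 1.19 ± 0.50 (limma adjusted p = 0.212). Phlda2, which limits placental growth, had 1.10 ± 0.58 (adjusted p = 0.347 in limma). Slc22a18, a membrane transporter, had -1.52 ± 0.93 (adjusted p = 0.421 in limma), with the lowest, median and highest log2 signal at -4.12, -3.13 and -1.80 in experiment 2 and -4.12, -1.22 and -0.13 in experiment 1. Kcnq1, a potassium channel subunit, had -0.50 and Meg3, a long noncoding RNA, 0.65. Cdkn1c, a cell cycle inhibitor, Grb10, an adaptor of insulin signalling, Ube3a, a ubiquitin ligase, and Tssc4 had log2 differences between -0.34 and 0.20. In each of these genes the experiments overlapped.

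Of the other paternally expressed genes, Mcts2 had the largest log2 difference, 0.78 ± 0.58 (limma adjusted p = 0.501). Mcts2 is a retrotransposed copy of Mcts1 inside the gene H13, and signal of Mcts1 cannot be told apart from it here. Usp29, a peptidase gene beside Peg3, had 0.75, Impact, a regulator of translation, 0.49 and Dio3, which inactivates thyroid hormone, 0.46. Peg10, a gene derived from a retrotransposon, had 0.28, the zinc finger gene Peg3 0.01 and Sgce, a sarcoglycan, -0.31. Peg3 was at the floor in 4 cells of experiment 2 and 5 of experiment 1, so its value says little about its level. The probes of Snrpn and Gnas with the highest mean were detected on 5 and 4 arrays, too few to be tested. A dimmer probe of each, detected on 7 arrays, was tested and had 0.21 and 0.06. These dimmer probes were at the floor in all 6 cells of experiment 1, so their values depend on the floor. Ppp1r9b had -0.27. The signs of these smaller differences were not stable: 11 of the 24 genes changed sign in at least 1 alternative, and none of the 11 passed in any. After normexp correction, which put the median of all tested probes at -0.82, 7 did so, among them Usp29 (-0.70), Impact (-0.71), Dio3 (-0.43), Peg10 (-1.03) and Meg3 (-0.82).

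Genes of 1 domain were set side by side. Mest and Copg2, a coatomer subunit gene, overlap by 913 bases at their ends. Mest passed, while Copg2 had a log2 difference of -0.28 ± 0.73 (limma adjusted p = 0.849) and a second Copg2 probe -0.31. Zrsr1 passed, while Commd1, which surrounds it, had 0.89 ± 0.36 (limma adjusted p = 0.187) and a second Commd1 probe 0.10. The difference between the genes of a pair was not tested. The Igf2 and Kcnq1 cluster on chromosome 7 held 7 tested genes, with log2 differences from -4.00 in Cd81 to 1.10 in Phlda2.

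Over the classes, the median log2 difference was -0.04 in 13 maternally expressed genes and 0.62 in 10 paternally expressed genes, and 0.19 over all tested probes. It was above 0 in 5 of the 13 and in 9 of the 10, and in 64.7% of all tested probes. The classes differ in kind as well. The tested genes known to be imprinted in some tissues only were all maternally expressed: Cd81, Commd1, Copg2, Dcn, Kcnq1, Tssc4 and Ube3a. After normexp correction the medians were -0.98 and -0.57, against -0.82 over all tested probes. The difference between the class medians was -0.039 with no filter on dim probes. That setting held all 17 maternally and 20 paternally expressed genes with a probe. Some of them, such as Ascl2 and Nnat, were at the floor in every cell and can show no difference. Without both cells of pair D of experiment 2, an alternative added after the data were seen, the medians were -0.27 and 0.06. Over all tested probes the median also fell, from 0.19 to -0.04. The difference between the class medians was then -0.33, against -0.66 with those cells. Of the 24 genes, 4 did not overlap between experiments, where 7.67% of all tested probes did not.

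**Figure D4:**
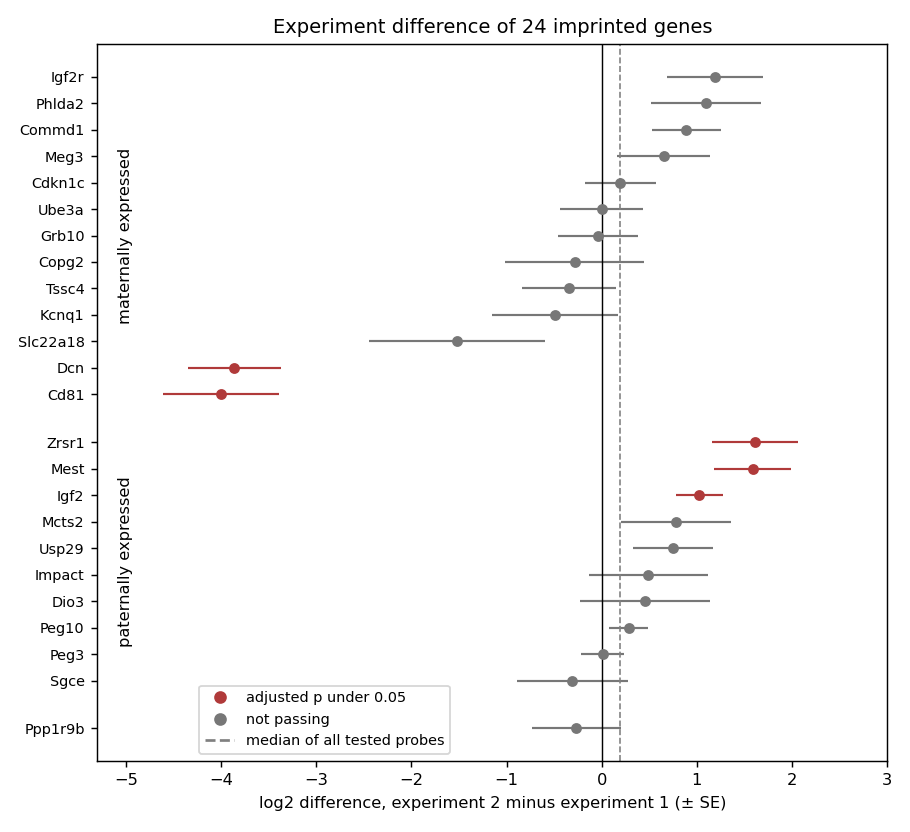
Log2 difference between experiments (experiment 2 minus experiment 1) with its standard error for 24 imprinted genes, ordered by class and size, with a dashed line at the median of all tested probes, 0.19. Red marks the 5 genes at an adjusted p under 0.05: Zrsr1, Mest and Igf2 to the right and Dcn and Cd81 to the left.

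The third comparison asked whether imprinted genes differed between embryos of an experiment more than between twins. No member gene passed in limma, where 1.41% of all tested probes did, and 4 of 24 had an unadjusted p under 0.05, where 29.8% of all probes did. The members' share was thus no higher than that of all probes, and the 4 are given as values. These were Usp29, Peg10, Igf2r and Mcts2, with adjusted p of 0.0567, 0.0649, 0.0810 and 0.0862 in limma. In all 4 the highest embryo of experiment 2 was pair D. Usp29 was at -2.24 in cell 2 and -1.89 in cell 1 of pair D, at -3.29 and -4.12 in pair G and at the floor in both cells of pair H. Igf2r was at -1.49 and -1.38 in pair D, at -2.08 and -2.55 in pair G and at -4.12 and -3.61 in pair H. Mcts2 was at 0.25 and -0.31 in pair D, at -1.98 and -1.61 in pair G and at -1.53 and -1.71 in pair H. In experiment 1 Mcts2 was highest in pair I, at -0.81 and -0.92.

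Pair D of experiment 2 had the highest mean of its experiment in 17 of the 24 tested members and in 62.4% of all tested probes. Its arrays also had the most spots well above background, 64.3% in cell 2 and 78.8% in cell 1. This pair was alone on its slide, as was pair D of experiment 1, so for these embryos embryo and slide cannot be told apart. Pair H had the lowest mean in 14 of the 24 members and in 52.3% of all probes, with 37.5 and 46.7% of spots well above background. In experiment 1 the highest mean was that of pair L in 11, pair I in 8 and pair D in 5 members, and in 50.3, 19.4 and 23.7% of all probes in that order. Without both cells of pair D of experiment 2, 0 members passed and 1 had an unadjusted p under 0.05, where 0.269% and 12.0% of all probes did. Between embryos that shared a slide, pairs G and H of experiment 2, 0 members and 0 of 16712 probes passed in limma. For pairs I and L of experiment 1 these counts were 0 and 0 as well. Other settings gave member calls along with many others: 8 members and 35.0% of all probes passed after normexp correction, and 5 members and 26.1% with a floor for each array. Leaving out cell 1 of pair L gave 5 members and 23.2% of all probes, and leaving out cell 2 of that pair 3 members and 11.0%. Without cell 2 of pair G 2 members and 8.77% of all probes passed, and without its cell 1 these were 1 member and 6.84%. The part of detection in these differences was not tested.

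Twins were also compared by their distance, the absolute log2 difference. Over the 24 genes the median of the mean distance was 0.67 between twins and 0.79 between cells of different embryos of 1 experiment, and over all tested probes 0.48 and 0.66. By class the medians were 0.69 and 0.96 in maternally expressed genes and 0.64 and 0.72 in paternally expressed genes. Twins were closer than cells of different embryos in 16 of 24 members and in 71.2% of all tested probes. The smallest twin distances, 0.08 in Peg10 and 0.22 in Peg3, belong to genes at the floor in most cells.

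Some genes differed more between twins than between embryos. Copg2 had a mean twin distance of 1.45, against 0.97 between embryos. Its log2 signal was -1.49 in cell 2 and -4.12 in cell 1 of pair G, but -3.64 in cell 2 and -1.22 in cell 1 of pair H, so the sign of the difference changed between embryos. Sgce had 1.17, against 0.81 between embryos, and Cd81 had 1.14, against 0.96. Cd81 was at -1.21 in cell 2 and -3.55 in cell 1 of pair G, and at 0.79 in cell 2 and 2.78 in cell 1 of pair I, whose stromal sums were 23.7 and 81.9.

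**Figure D5:**
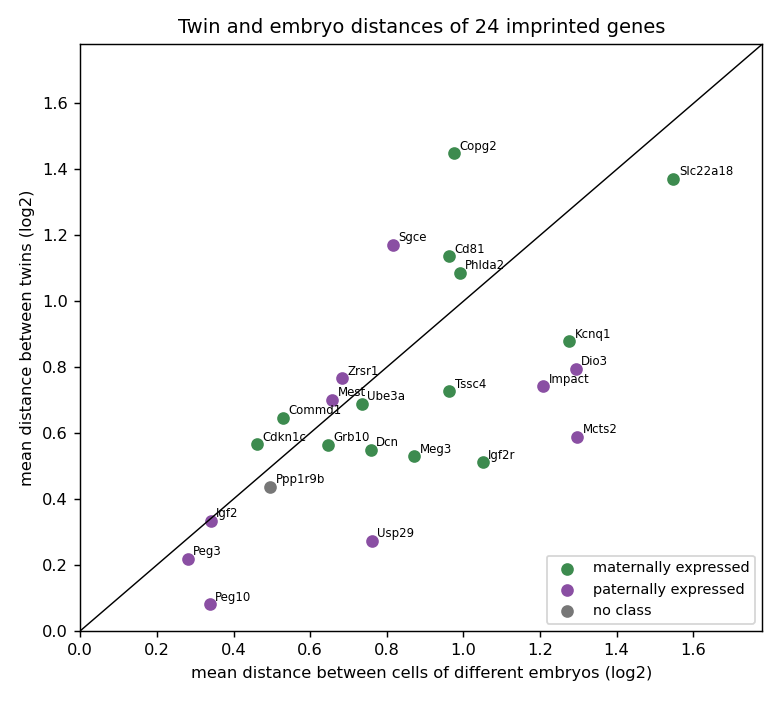
Mean log2 distance between twins against mean log2 distance between cells of different embryos of the same experiment for 24 imprinted genes, with the line of equality. Copg2 lies farthest above the line (1.45 against 0.97), and 16 genes lie below it.

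Cell number showed no call. Limma passed 0 of 16712 probes for cell 2 minus cell 1 and 0 for the interaction of cell number with experiment, and 738 and 881 had an unadjusted p under 0.05. Of the 24 representative probes none did in either test, and of all 33 tested member probes 1 did for cell number, a second probe of Ube3a with a log2 difference of 0.59 ± 0.22 (limma adjusted p = 0.674). Among representative probes the lowest unadjusted p were those of Impact and Mest. Impact had a log2 difference (cell 2 minus cell 1) of 0.65 ± 0.32 and Mest of -0.53 ± 0.26, both with an adjusted p of 0.674 in limma. The median difference was 0.02 in maternally and 0.19 in paternally expressed genes and 0.11 over all tested probes.

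Other genes of the imprinting system were described from lists. Of 35 further imprinted genes, 30 had a probe, 14 were tested and 9 were well above background on all 12 arrays. In limma 0 passed between experiments, and 3 of the 14 had an unadjusted p under 0.05, where 19.2% of all tested probes did. The smallest adjusted p were those of Dhcr7, an enzyme of cholesterol synthesis, at a log2 difference of 1.36 ± 0.56 (adjusted p = 0.195 in limma), and Blcap, the gene around Nnat, at 0.62 ± 0.26 (adjusted p = 0.203 in limma). The median of the list was 0.22, against 0.19 over all tested probes. Of 23 genes that place or protect imprints, 16 were tested and 2 passed, both lower in experiment 2, where 4.15% of all tested probes were. Uhrf1, which guides the maintenance methyltransferase, had -1.76 ± 0.26 (limma adjusted p = 0.0021). Khdc3, a subunit of the subcortical complex of the oocyte, had -2.53 ± 0.58 (limma adjusted p = 0.0209). Of 8 tested genes of early genome activation, 3 were higher in experiment 2, where 3.96% of all tested probes were. They were Tcstv1 by 2.11, Tcstv3 by 1.45 and Tdpoz1 by 1.86 on the log2 scale. Of 6 genes whose imprint rests on histone methylation, all had a probe, 1 was tested and 0 passed in limma, also at an unadjusted p under 0.05. Of 12 tested oocyte transcripts, 2 were lower in experiment 2, where 4.15% of all tested probes were. They were Khdc3, already counted above, and Tle6, of the same complex, at -1.15. Of 4 tested cumulus and granulosa markers, 0 passed in limma and 0 had an unadjusted p under 0.05.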

How the data were processed

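Per the labels' protocols, single cells gave RNA that went through 2 amplification rounds before hybridisation to Agilent arrays. The scanner files hold intensity values, background-subtracted by the authors' scanner software (Agilent Feature Extraction, version 9.1.3.1, as the file headers state). The deposited value table holds intensity too, namely the processed signal divided by 1 constant per array. At least 99.96% of probes with a deposited value of at least 1 lay within 1% of that ratio.

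For the fits, outlier spots were dropped and repeated spots of a probe averaged. Each array was scaled by its 75th percentile, taken over 5858 probes that were well above background throughout. Scaled signals below 0.0574 (-4.12 on the log2 scale) were set to that floor, which is the largest among the smallest detected signals of the arrays. A probe was tested if at least 6 arrays detected it, which left 16712. Tests used limma 3.58.1 in R 4.3.3, with Benjamini-Hochberg adjustment over all of them at a threshold of 0.05. Embryos were compared by a moderated F test over 4 contrasts within experiments. Cell number, and whether its effect differed by experiment, were fitted with a fixed embryo block. Experiments were compared with a random embryo block (consensus correlation 0.346). The probe with the highest mean stood for its gene, and every member could be named. Of other lists, up to 4 genes with the smallest adjusted p were named. The members, lists and classes were chosen with earlier results of these data known.

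The fits were tested on simulated data with 100 changed probes of each size. Between embryos they recovered 22 changes of 4-fold and 65 of 16-fold. For cell number they recovered 26 of 2-fold and 75 of 4-fold, and between experiments 41 and 74. False calls numbered 8, 8 and 11 in that order. An absent call therefore does not show that a difference is absent. Alternatives changed the floor, background correction, normalization, filter, blocks and cells included. The number of arrays limits the precision. The labels give twins of 1 embryo as separate samples, and nothing says that embryos came from separate females. Cells with the same number in different embryos deviated together weakly at most: 3 of 15 correlations between the embryos' twin differences were over 0.1 (range -0.08 to 0.26).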

Additional observations from a re-analysis of the deposited data

Results flagged for a closer look

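In a group of 6 cells, Zrsr1 had 1 cell far from the others of experiment 2. Cell 2 of pair H was at -2.34 on the log2 scale, and the other 5 cells lay between -0.91 and -0.38. The gap to the nearest cell was 0.732 of the whole range, above Dixon's critical value of 0.625. Over 24 groups of 6 cells examined, chance flags about 1 in 20.

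Usp29 gave a signal outside the channel used. In experiment 1, where the RNA was in Cy5, 1 member probe was well above background in Cy3, a probe of Usp29 on 1 array. On these arrays 68 to 160 spots in all were so in Cy3.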

How the results depend on the processing

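Of the 5 genes that passed between experiments, 2 (Cd81 and Dcn) remained with a lower common floor, with a floor for each array, after normexp correction, with the 75th percentile of all probes and in the deposited values. Restriction to probes well above background on all 12 arrays left 3 (Cd81, Mest and Zrsr1), as Dcn and Igf2 were then not tested, and a slide as random block and leaving out both cells of pair D of experiment 1 left 3 each (Cd81, Dcn and Igf2). Leaving out 1 cell gave 2 to 5. With cell number as replicate block 4 passed, without Zrsr1 (adjusted p = 0.0703 in limma), and cell number paired cells of different embryos weakly at most. Over all probes the count of 1356 was 172 with the 75th percentile of all probes. No member passed between embryos, but some did in alternatives, given here with the share of all probes in brackets. With a floor for each array 5 of 24 members passed (26.1%), after normexp 8 (35.0%) and with the 75th percentile of all probes 1 (2.0%). With no filter on dim probes 4 of 39 passed (6.72%). In experiment 2 alone 2 of 24 passed (4.7%), and on leaving out 1 cell 0 to 5 (0 to 23.2%). Over all probes 235 passed, against 0 to 5842 in the alternatives. The count of detected genes, 26, was 7 when all 12 arrays were required and 25 or 26 on leaving out 1 cell. The difference of class medians, -0.66, was -1.97 with the filter of all 12 arrays, -0.039 with no filter and -0.77 to -0.51 on leaving out 1 cell. The value with no filter includes genes at the floor in every cell, which can show no difference. The median of all tested probes ranged from -0.82 after normexp to 0.26 without cell 2 of pair L of experiment 1. None of the 5 genes that passed changed sign in any alternative, but 11 of the other 19 did in at least 1, and the paternally expressed median was -0.57 after normexp. Cell number gave 0 calls among members in each alternative run. The causes of these shifts were not tested.

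Low signals limit the data: the floor holds many members, so a difference between dim genes is compressed. With 3 embryos in an experiment, dye and scan sharing its split, and no slide holding both experiments, no value here separates these.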
